A study of Drosophila melanogaster with 3 samples.

Results

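The 10 glial fate and function genes were examined for binding of tagged Scute. They were chosen by name, as regulators of glial fate and genes of mature glia, out of 13945 protein-coding genes on the 6 chromosome arms of the fly. The regulators were repo, gcm, gcm2 and pnt, and the genes of mature glia were loco, moody, Gs2, Eaat1, Gli and Nrg. ChIP-seq with an antibody against GFP mapped a C-terminal GFP fusion of Scute (sc-eGFP) in whole Drosophila melanogaster embryos of 0 to 14 h, males and females together. The 3 biological replicates came from 1 transgenic line and formed a single group, so no groups could be compared and no test was made. An untagged or input sample was not analysed here, and chromatin of the whole embryo does not show in which cells a region was bound.

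Scute is a proneural bHLH transcription factor that pairs with Daughterless on E-box sites and promotes neural precursor fate. Glia arise largely from neural and sensory organ precursors. The transcription factor Gcm directs daughter cells to the glial fate, its paralog gcm2 acts beside it, and the homeodomain factor Repo then maintains glial differentiation. The Ets factor Pnt carries Egfr signalling and is also used in glia, while the mature genes serve the blood-brain barrier, glutamate handling and cell contacts.

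A gene was given every region whose summit, the position of strongest signal, lay in the gene body or within 2 kb upstream, here called its territory. The regions that passed the authors' irreproducible discovery rate (IDR) threshold are called thresholded. They numbered 3612 and were the highest-signal regions of a pooled list of 30000. The members' 14 thresholded summits lay on 2L, 3R and X. The windows below, 100 bp on each side of a summit, show the strongest regions of pnt and moody, and windows of Gs2 and Gli that held an E-box of the CAGCTG or CAGGTG form. They are given 5' to 3' on the plus strand of dm6, read from the RefSeq Release 6 assembly. Regions of a gene are numbered from its 5' end, and capitals mark GATAAG in pnt region 6 and the E-box in Gs2 region 1 and Gli region 1.
pnt region 6, chr3R:23326401-23326601: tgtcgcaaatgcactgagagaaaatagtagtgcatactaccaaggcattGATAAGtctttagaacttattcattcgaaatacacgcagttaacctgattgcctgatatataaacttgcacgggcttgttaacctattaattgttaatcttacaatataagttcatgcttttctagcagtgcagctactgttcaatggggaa
moody region 1, chrX:2050181-2050381: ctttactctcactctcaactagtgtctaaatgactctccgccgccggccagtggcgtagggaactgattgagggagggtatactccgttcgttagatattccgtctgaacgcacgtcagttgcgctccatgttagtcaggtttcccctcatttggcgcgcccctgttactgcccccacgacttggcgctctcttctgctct
Gs2 region 1, chrX:11423279-11423479: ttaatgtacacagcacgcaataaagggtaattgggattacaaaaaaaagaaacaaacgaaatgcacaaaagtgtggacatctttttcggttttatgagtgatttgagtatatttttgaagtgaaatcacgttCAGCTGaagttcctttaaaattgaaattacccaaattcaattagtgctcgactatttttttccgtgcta
Gli region 1, chr2L:15761937-15762137: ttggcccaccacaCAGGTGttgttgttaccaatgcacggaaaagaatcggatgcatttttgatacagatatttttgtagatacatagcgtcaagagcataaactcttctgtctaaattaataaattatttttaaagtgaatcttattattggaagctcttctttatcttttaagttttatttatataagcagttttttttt

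A thresholded summit was found at 6 of the 10 members, namely pnt, loco, moody, Gs2, Gli and Nrg. The glial master regulators gcm, gcm2 and repo held none, and neither did the glutamate transporter gene Eaat1. Among all protein-coding genes 20.5% held one (2858 of 13945). The territories of the members were long, with a median of 9.06 kb against 4.17 kb over all genes, and long territories held summits more often. For territories of 5 to 12 kb the count was 3 of 6 members, against 24.6% of all genes of that length. Between 12 and 30 kb it was 1 of 1 member, against 43.2% of all genes. Above 30 kb it was 2 of 2 members, against 52.9%. Below 5 kb it was 0 of 1 member, against 12.9%. Within each length class the members are too few for the difference from all genes to be read.

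**Figure D1:**
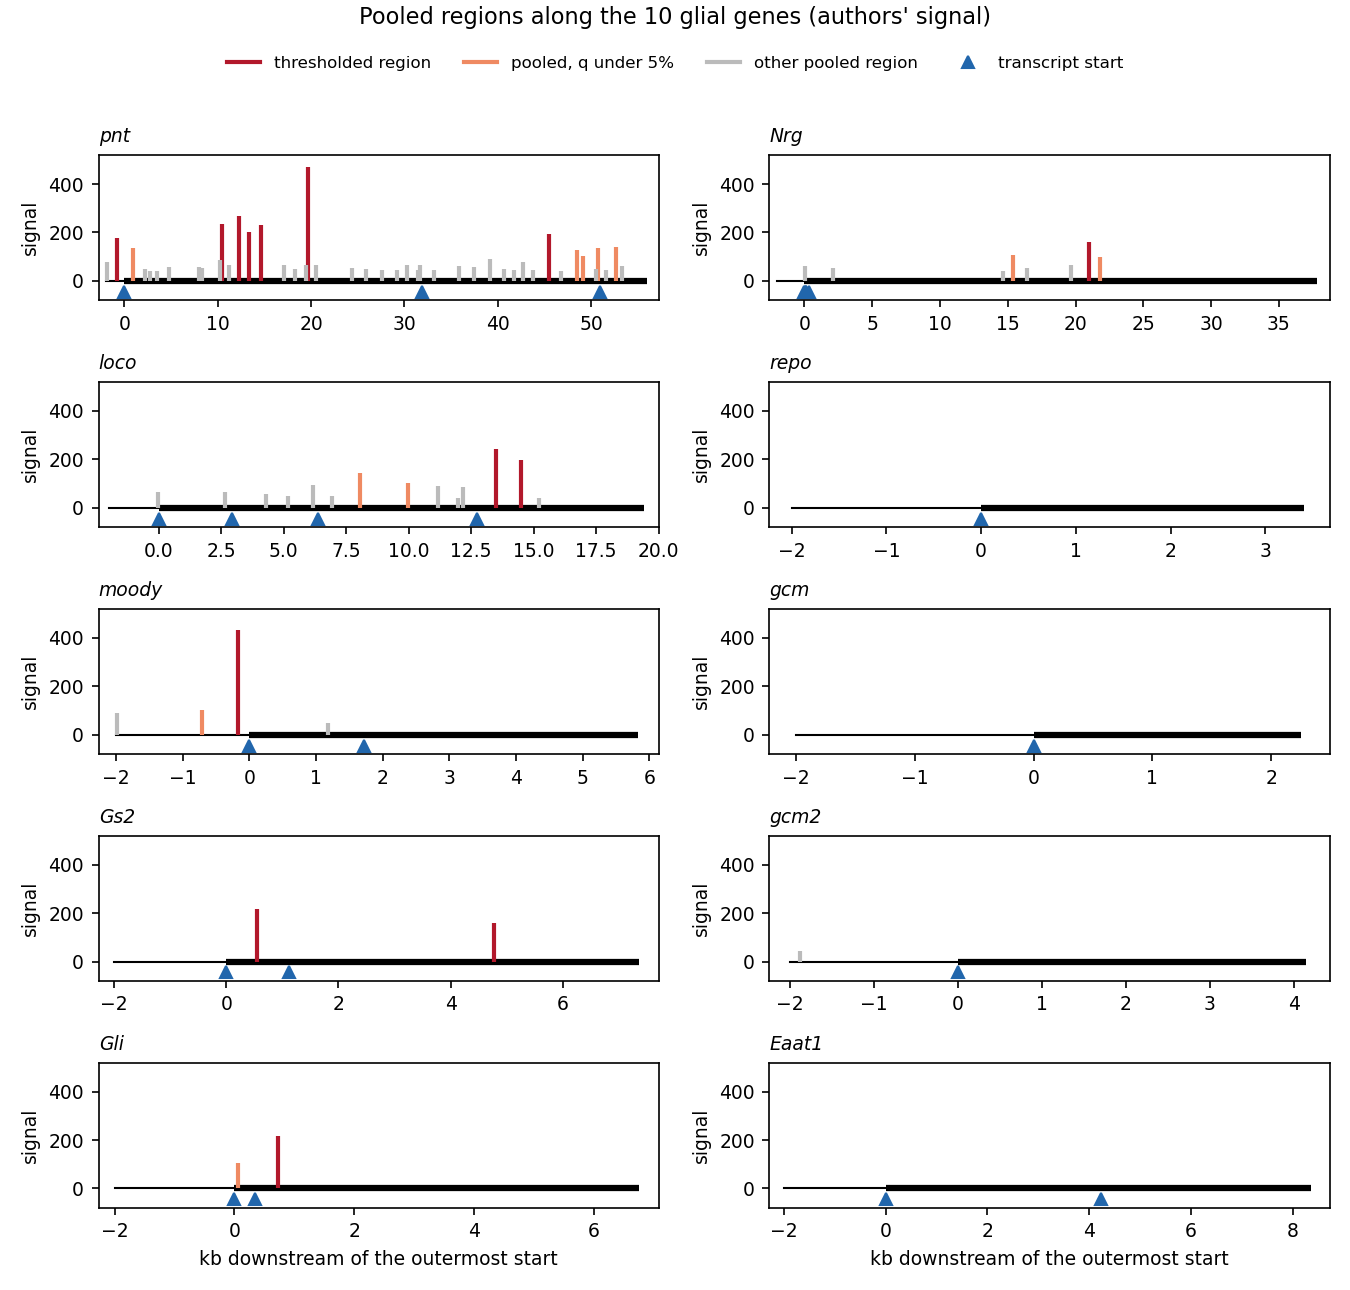
Regions of the pooled list along the 10 glial genes, with distance from the outermost start on the horizontal axis (kb) and the authors' signal on the vertical axis. Thick lines are gene bodies, thin lines the 2 kb upstream, red bars the 14 thresholded regions, orange bars the 11 other regions with a q-value under 5%, and grey bars the remaining pooled regions, while triangles mark transcript starts. The panels of repo, gcm and Eaat1 are empty.

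The members carried 14 thresholded summits in all, and 7 of them were at pnt. With 2 or more summits stood 3 members, pnt, Gs2 and loco, against 5.41% of all protein-coding genes (755 genes). In all genes only 32 held as many summits as pnt or more, pnt included. These counts over all genes, and the shares given for other counts below, were not split by territory length. The members' territories were longer, with a median of 9.06 kb against 4.17 kb. Per length of territory pnt held 1.21 thresholded summits per 10 kb, moody 1.28, Gli 1.14, Gs2 2.14, loco 0.934 and Nrg 0.251, against 0.343 over all protein-coding genes. At repo, gcm, gcm2 and Eaat1, which held no thresholded summit, the density was 0. A territory shorter than the mean spacing of summits lies above the level of all genes as soon as it holds 1. Among members with a summit, only pnt and Nrg, with the longest territories, were therefore free to fall on either side. The density of pnt lay above that level and that of Nrg below it.

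The gene pnt (FBgn0003118, chr3R:23290231-23346167, minus strand) encodes the Ets factors of the Egfr pathway from 3 annotated starts. Its strongest region, region 6 (chr3R:23326391-23326607), lay in intron 3 of the longest transcript pnt-RB, 19.7 kb downstream of the pnt-RB start and 12186 bp upstream of the pnt-RD start. The authors' signal of this region was 167 in replicate 1, 159.8 in replicate 2 and 127 in replicate 3, each on the scale of its own list. In the pooled list it was 469.7. Ranked by signal within each replicate, with 1 as the strongest, it stood at 338, 702 and 752, a mean of 597 ± 226 (SD, n = 3). By pooled signal and by mean rank it was the strongest region of any member, though its mean rank and that of the moody region (651) differed by less than the spread between replicates. By best pooled signal pnt stood at place 599 of the 2858 genes with a thresholded summit.

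Upstream of region 6 in the same intron lay 4 more thresholded summits of pnt, and the 5 together spanned 9.25 kb. Region 5 ranked 1437, 3065 and 1195 in replicates 1, 2 and 3. Region 3 (chr3R:23333655-23334084) was more even, with ranks of 1491, 1421 and 1719 and a mean of 1544 ± 156 (SD, n = 3). Region 2 ranked 2006, 1605 and 1541, and region 4 ranked 2082, 2246 and 2456. These 5 summits lay among the highest 3612 regions of all 3 replicates, and none was within 10 kb of an annotated start of pnt or of any other protein-coding gene.

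The remaining regions of pnt were less alike between replicates. Region 1 (chr3R:23346801-23347230) lay 849 bp upstream of the pnt-RB start and 1112 bp from a start of PolE1, which encodes a DNA polymerase subunit and has the region in its territory too. It ranked 3168, 5057 and 1785. Region 7 (chr3R:23300495-23300924) lay 5472 bp upstream of the start shared by pnt-RC and pnt-RE, in an intron of the longer transcripts. It ranked 6128, 2472 and 1783, and in replicate 1 its q-value was not under 5%, unlike every other thresholded region of a member in any replicate.

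The fate regulators gcm and gcm2 lie 26.8 kb apart on 2L, with CG3841 and CG4382 between them. The territory of gcm (FBgn0014179, chr2L:9579498-9581745) held no pooled region. Replicates 1 and 2 listed 1 region each there, at ranks 22321 and 14132, and replicate 3 listed none. The territory of gcm2 (FBgn0019809, chr2L:9608562-9612706) held 1 pooled region at rank 24732 with a signal of 43.0. Replicate 1 listed none there, and the best regions of replicates 2 and 3 ranked 19581 and 9147. None of these had a q-value under 5%.

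Outside the territories, 2 thresholded summits lay between gcm and gcm2. One (chr2L:9598430-9598859) was 9.92 kb upstream of gcm2 and 2227 bp from a start of CG4382, with ranks of 1728, 1526 and 2030. The other (chr2L:9594884-9595313) was 13.4 kb upstream of gcm and 13.5 kb upstream of gcm2, with ranks of 4487, 2285 and 4533. The summit nearest to gcm lay on its other side, 9.44 kb from the gene body and 215 bp from a start of brwl. That region (chr2L:9569916-9570293) ranked 271, 264 and 116, above every region of a member. Over all protein-coding genes the median distance from the gene body to a thresholded summit was 9.67 kb, and 50.5% were further from a thresholded summit than gcm and 49.4% were further than gcm2.

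At repo (FBgn0011701, chr3R:18236192-18239602, plus strand), the homeodomain gene that marks nearly all lateral glia, no pooled region lay in the territory. Replicate 1 listed 1 region at rank 21306 and replicate 2 listed 1 at rank 25487, neither with a q-value under 5%, and replicate 3 listed none. The nearest thresholded summit was 12.6 kb from the gene body and 50 bp from a start of mTerf5, which encodes a mitochondrial protein. Of all protein-coding genes, 43.3% were further from one. A pooled region of any strength lay in the territory of 7 of the 10 members, against 59.9% of all protein-coding genes. The 3 members without one were repo, gcm and Eaat1.

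The gene moody (FBgn0025631, chrX:2044292-2050120, minus strand) encodes a G protein-coupled receptor needed for the blood-brain barrier. Its single thresholded region (chrX:2050161-2050389) had a summit 161 bp upstream of the outer start, that of moody-RB and moody-RD. The gene lies inside CG4313, which is on the other strand, and the summit was also in an intron of CG4313, 2403 bp from the nearest start of that gene. The signal was 160.0, 178 and 108 in replicates 1, 2 and 3, with ranks of 368, 565 and 1021 (mean 651 ± 335, SD, n = 3). The replicate summits fell 0, 8 and 3 bp from the pooled summit. At moody the window had 54.7% GC, the highest of the members, against a mean of 34.7% ± 6.90 over all thresholded windows (SD, n = 3612 windows). None of the motifs searched was found in it.

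The gene loco (FBgn0020278, chr3R:22619968-22639387, minus strand) encodes a regulator of G protein signalling that acts with Moody in the barrier. Both of its thresholded regions lay in an intron just downstream of the innermost of its 4 starts, that of loco-RC and loco-RF. Region 1 (chr3R:22625698-22626127) was 721 bp and region 2 (chr3R:22624680-22625109) 1739 bp downstream of this start. The signal of region 1 was 39.2, 111 and 91.4 in replicates 1, 2 and 3, with ranks of 4575, 1356 and 1345. Replicate 1 was the low one. Region 2 ranked 2697, 2142 and 4464, with replicate 3 as the low one. Neither region was therefore among the highest 3612 of all 3 replicates.

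The gene Gs2 (FBgn0001145, chrX:11422832-11430197, plus strand) encodes a glutamine synthetase, which converts glutamate to glutamine and is a marker of glia. Its region 1 (chrX:11423164-11423593) lay 547 bp downstream of the outer start, in intron 1 of Gs2-RB and Gs2-RD. The signal was 62.7, 75.3 and 67.8 in replicates 1, 2 and 3, with ranks of 2158, 2649 and 2186 (mean 2331 ± 276, SD, n = 3). All 3 replicates had it among their highest 3612. Gs2 region 1 held the E-box CAGCTG at chrX:11423411-11423416, with its centre about 35 bp from the summit. Region 2 (chrX:11427385-11427814) lay further in, 3643 bp downstream of the nearest start of Gs2, with ranks of 3198, 5073 and 2508.

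Eaat1 (FBgn0026439, chr2L:9333567-9341925, plus strand) encodes the main glutamate transporter of fly glia, so it stands next to Gs2 in glutamate handling. No region of the pooled list had its summit in the territory of Eaat1. Replicates 1 and 2 listed none there either, and replicate 3 listed 1, at rank 17843 with a signal of 19.2. The nearest thresholded summit lay 89.3 kb away, 133 bp from a start of scat. The gene was far from any thresholded summit, with 4.63% of all protein-coding genes further from one.

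The gene Gli (FBgn0001987, chr2L:15756002-15762758, minus strand) encodes Gliotactin, a protein of tricellular junctions in peripheral glia and epithelia. Its region (chr2L:15761822-15762251) lay 371 bp downstream of the Gli-RE start and 721 bp downstream of the outer start, in an intron. The signal was 82.1, 60.7 and 68.4 in replicates 1, 2 and 3, with ranks of 1385, 3780 and 2153 (mean 2439 ± 1223, SD, n = 3), so replicate 2 placed it outside its highest 3612. At Gli the E-box CAGGTG lay at chr2L:15761950-15761955, its centre about 84 bp from the summit.

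The gene Nrg (FBgn0264975, chrX:8517373-8555170, plus strand) encodes Neuroglian, an adhesion protein of neurons, glia and septate junctions. Its region (chrX:8538155-8538584) lay in intron 3, 21.0 kb downstream of the outer start. The nearest start, 8672 bp away, was that of PIP82, a gene within the Nrg body. The signal was 48.2, 67.7 and 41.1 in replicates 1, 2 and 3, with ranks of 3241, 3165 and 4650 (mean 3685 ± 836, SD, n = 3). By mean rank it was the weakest of the 14 regions, with Gs2 region 2 (mean 3593 ± 1327, SD, n = 3) next to it and within its spread.

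**Figure D2:**
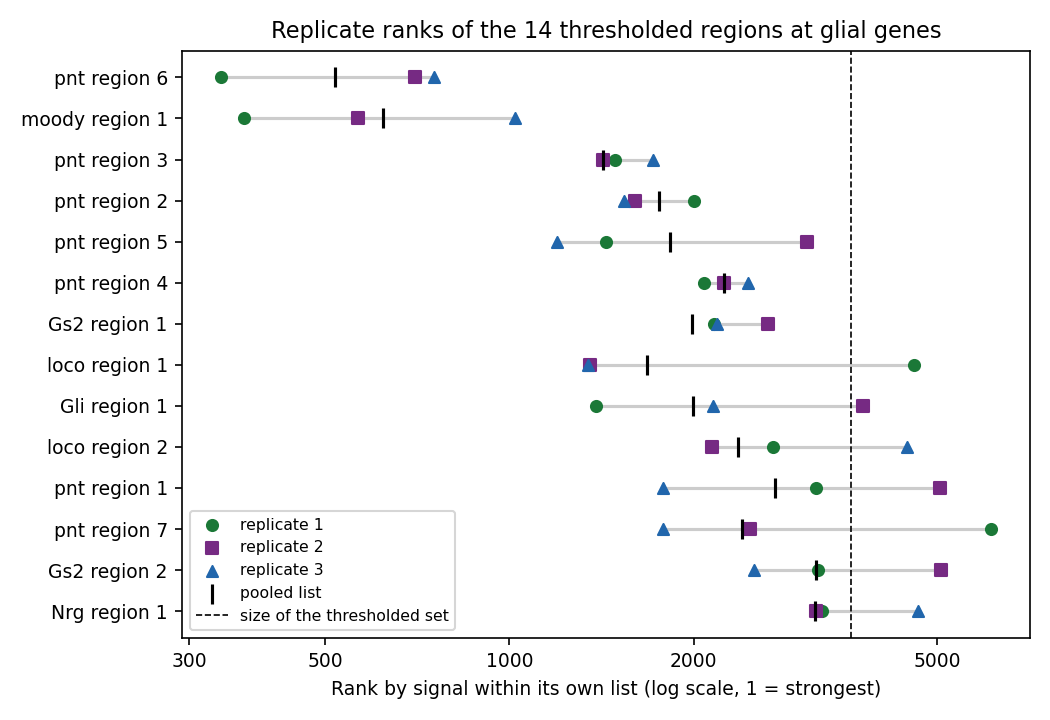
Rank by signal of each of the 14 thresholded regions in each replicate (symbols) and in the pooled list (black ticks), on a log scale along the horizontal axis, ordered from top to bottom by mean replicate rank. The regions pnt 6 and moody 1 stand apart at ranks of 338 to 1021, and 7 regions have a replicate to the right of the dashed line at 3612.

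The lists were also read without the IDR threshold, by q-values taken from the narrowPeak column that usually holds them. The members with a pooled region under 5% q-value were the 6 with a thresholded summit, against 29.6% of all protein-coding genes. Thresholded regions are the highest of the pooled list, where 6504 regions were under 5%. These 6 members therefore passed by their thresholded regions, and the count shows only that no further member was added within these territories. With the gene body plus 5 kb on both sides, which could only raise or keep the count, it was 8 members. The share of all protein-coding genes at that setting is not given here. The count with a region under 5% in all 3 replicates was also 6 of 10, against 20.6%. It did not have to be the same region in each replicate. This count is not separate support either, as the IDR threshold had selected the regions of these 6 genes from the same replicates. Below the threshold these genes held 11 further pooled regions under 5%, of which 5 were in pnt, 2 in loco, 2 in Nrg and 1 each in moody and Gli. Only 1 of the 11 had a region under 5% within 250 bp in all 3 replicates. It was the one in pnt at chr3R:23293328-23293757, downstream of the innermost start, with ranks of 4068, 5590 and 3425. None of the 11 lay within 500 bp of a thresholded summit, and the nearest, at moody, was 548 bp away.

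The replicates did not place all of the members' regions equally high. Of the 14 regions, 7 ranked among the highest 3612 of all 3 replicates and 7 of 2 replicates, against 2256 of 3612 thresholded regions (62.5%) in all 3 replicates. The 7 in all 3 replicates were pnt regions 2 to 6, moody region 1 and Gs2 region 1. The 5 of pnt lie in 1 intron of 1 gene, so this count of regions rests largely on pnt. By gene, 3 of 10 members had such a region in all 3 replicates (pnt, moody and Gs2), against 14.9% of all protein-coding genes. The median distance from a replicate summit to the pooled summit was 17.5 bp for the members' regions and 16 bp for all thresholded regions. The median pooled rank was 1994 for the members' regions and 1807 for all. The best pooled rank of a member region was 520, at pnt region 6.

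The members' summits lay in introns for the most part, and those of pnt were far from starts. Of the 14, 12 lay in introns of the member and 2 upstream of it, and none was in coding sequence or a UTR. The territory rule admitted only summits in the gene body or upstream. No share by feature is given over all thresholded summits, so these counts cannot be read as particular to the members. Within 500 bp of a start lay 2 of the 14 (14.3%), at moody and Gli, against 37.8% of all thresholded summits. The median distance to the nearest start was 4557 bp, against 1202 bp. The direction of the median rested on pnt, whose 7 regions share 1 gene. For the 7 regions of the other 5 genes the median distance was 721 bp, below the 1202 bp of all summits. Within 500 bp lay 28.6% of these 7 regions, still below the 37.8% of all summits. Leaving out pnt was a comparison chosen after the values were seen.

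The windows of 100 bp on each side of the 14 summits were searched on both strands for the E-box forms named here and for the letters of other factors. Other E-box forms were not searched. Achaete-scute proteins with Daughterless favour a pair of E-box forms with a leading G. Of these, GCAGCTG was in 0 of the 14 windows, against 3.52% of all 3612 thresholded windows. For GCAGGTG the count was 0, against 1.19%. The shorter CAGGTG, which GCAGGTG contains, was in 2 windows (pnt region 5 and Gli region 1), against 4.93% of all windows. CAGCTG, which GCAGCTG contains, was in 1 window (Gs2 region 1), against 7.86%. Also in 1 window each were GATAAG, which zinc-finger factors of the GATA family bind (pnt region 6, against 11.0%), and the repeat GAGAGAG (loco region 2, against 3.57%). CACGTG was in 0 of the 14 windows, against 1.80% of all windows. The E-box CATATG was also in 0 windows, against 8.44%. For CCGGAAG, an Ets core, the count was 0, against 0.775%, and for the Gcm site, searched as ATGCGGGT or as ATACGGGT, it was 0, against 0.194%. With windows of 200 bp on each side, GCAGCTG was found in 1 of the 14 windows, that of loco region 1, at chr3R:22625731-22625737, against 8.50% of all such windows. GCAGGTG was then found in that of Gli region 1, at chr2L:15761885-15761891, against 3.10%. At this width CAGCTG was in 2 windows, against 18.4%, CAGGTG in 2, against 10.5%, and CATATG in 1, against 14.7%. GATAAG was in 3, against 20.1%, and GAGAGAG in 3, against 11.5%. CCGGAAG was in 1, that of Gs2 region 1, against 1.44%. CACGTG and the Gcm site were still in 0, against 4.62% and 0.72%.

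Related genes were counted by the same rule. Of 20 other glial genes, 2 held a thresholded summit. They were htl, an FGF receptor gene, with ranks of 675, 1465 and 781, and NimC4, a phagocytic receptor gene, with ranks of 1332, 1124 and 1260. Of 19 septate junction genes 7 did. The strongest were Atpalpha, a sodium pump subunit gene, with ranks of 524, 668 and 357, Mcr, with ranks of 606, 533 and 606, and bou, with ranks of 1411, 787 and 857, where the nearest start was that of ogre. Of 9 genes listed for G protein signalling around Moody and Loco, 3 did. These were Tre1 (ranks 307, 235 and 285), Galphai (ranks 2615, 1659 and 1977) and Pka-C1 (ranks 2071, 3072 and 5578, nearest start that of pelo). A place in this list does not show that a gene, Tre1 included, acts with Moody or Loco.

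Egfr and Ets signalling genes, the pathway that acts through Pnt, held a summit at 12 of 19 genes, with 31 summits in all. The strongest were at aos, a secreted Egfr inhibitor gene, with ranks of 74, 103 and 102, at S (Star), needed for ligand export, with ranks of 175, 60 and 99, and at edl, a gene for a Pnt regulator, with ranks of 86, 132 and 154. All 3 ranked above the best region of pnt itself. The other 9 of the 12 genes are counted only. The median territory of this list was 11.4 kb, and that of the other glial genes 9.26 kb. For the septate junction genes it was 10.9 kb, and for the G protein signalling genes 9.29 kb. These lists were chosen with earlier results of these data known, and the differences between them were not tested.

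**Figure D3:**
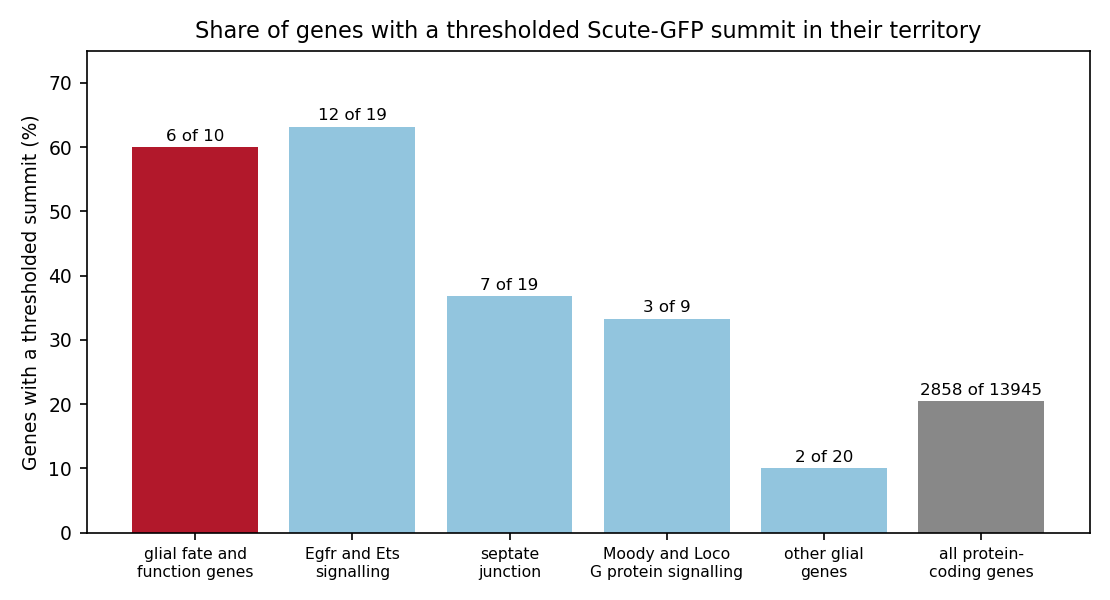
Share of genes with a thresholded summit in their territory (vertical axis, percent) for the 10 glial fate and function genes, 4 lists of related genes and all protein-coding genes, with the counts above the bars. The share was 60% for the members (6 of 10), 63.2% for Egfr and Ets signalling genes (12 of 19), 10% for other glial genes (2 of 20) and 20.5% for all genes.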

How the data were processed

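Region lists in dm6 coordinates were used for each of the 3 replicates, for the replicates pooled, and for the set that passed the IDR threshold. Chromatin was sonicated to fragments of 200 to 800 bp, per the labels. Per the notes deposited with the samples, each list was made with a control alignment. No name or version of an aligner or a peak caller is given in the sources used here. The authors' deposited signal is on the scale of its own list, so replicates were compared by rank. Column 9 of the deposited lists was read as −log10 of the q-value, after the narrowPeak column order. No source used here names it, so every count under a q-value of 5% rests on that reading. In replicates 1, 2 and 3 these numbered 4853, 6346 and 6435, and 6504 in the pooled list. Read depth is unknown, since the lists hold no read counts. The lists in dm3 coordinates were not used, as no gene models of that build were at hand.

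Gene models were those of Ensembl release 115 and the sequence that of RefSeq Release 6, the build of the dm6 lists. Coordinates are 1-based. A summit counted for every protein-coding gene whose territory held it. A replicate region was matched to a thresholded region when that was its nearest thresholded summit within 250 bp, and the strongest was kept. Distances to starts used protein-coding transcripts. Length classes of 5, 12 and 30 kb were set after the members' territories were seen. The members and lists were chosen with earlier results of these data known. Members were all named, and of each list the genes with the lowest mean replicate rank, 3 at most. For Atpalpha and pins the listed names were matched through synonyms. Alternatives covered the territory, the signal minimum, the search window and leaving out each replicate. The assignment and matching steps were tested on simulated data. The sequences of the other member windows are not reported here. Software was Python 3.11.15 (numpy 2.4.6, matplotlib 3.10.9).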

Additional observations from a re-analysis of the deposited data

How the results depend on the processing

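The count of members with a thresholded summit, 6, was 3 (pnt, loco and moody) in the 50% of thresholded regions with the highest pooled signal, and the summits in their territories were 5 instead of 14. With only regions among the highest of both other replicates kept, leaving out replicate 1, 2 or 3 in turn gave 4 to 5 members. This filter was not part of the count of 6 and could only lower or keep it. The summits then numbered 9 to 10, with 9 without replicate 1 and 9 without replicate 3. Members with a region among the highest of all 3 replicates numbered 3. Leaving out replicates in turn repeats the 4 to 5 members just given, with 5 without replicate 3. Asking for fewer replicates could only raise or keep the count of 3. By gene body only, the count lost moody, and by nearest start it lost Nrg. Of 36 alternatives of these gene and summit counts, 31 stayed within 1.5 times. The 4 to 5 members with replicates left out enter these 36 under both headings. Of 20 alternatives of the motif counts, which are 0, 1 or 2, 10 moved by more than 1.5 times. In windows of 50 bp on each side CAGGTG was found in 1 window, that of pnt region 5. Other directions were fixed as well. Keeping the 50% of regions with the highest signal, or the gene body only, could only lower or keep the counts. A territory with 5 kb on both sides could only raise or keep them. Wider motif windows could only add hits and shorter ones only lose them. Apart from these directions and those of the replicate filter, the cause of the changes was not tested. No paired analysis was possible because the study has a single group. The absence of a region does not show absence of binding, as depth is unknown.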
